A study of Mus musculus with 9 samples.

Results

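E0771-BrM, a mouse triple-negative breast cancer line, was set against 482N1, a mouse line labelled as non-small-cell lung cancer, gene by gene. Both had been grown in culture with no treatment and carry the genotype label WT, and BrM marks a brain-metastatic line. The comparison used the 6 libraries of these lines among the 9 of the series, with 3 libraries, named A, B and C, for each line. The remaining 3, of the melanoma line B16F10-BrM, entered the statistical model only to share the estimate of spread. Of the 11046 genes in the deposited count table, 11037 passed a filter on low counts and were compared. E0771-BrM had been grown in RPMI 1640 with HEPES and 482N1 in DMEM, both with serum, antibiotics and amphotericin B, so cell line and medium cannot be told apart in any difference given here. Each line stands for 1 tumour type by a single line, and the labels do not say whether the libraries came from separate cultures. The p-values therefore measure the spread between libraries only, which may be technical.

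Tumour cell lines keep part of the transcription programme of the tissue they came from and add programmes selected during growth. Cell-cycle genes are driven by E2F and MYB-type factors, antiviral genes by interferon through IRF9 and other factors, amino acid supply genes by ATF4, and low-oxygen genes by the hypoxia-inducible factors. Junction proteins and keratins are typical of epithelial cells, and many matrix proteins of mesenchymal cells. These descriptions are background for the gene lists used to order the results.

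The 6 libraries held 7332390 to 9293348 counts each. Ribosomal RNA genes took 15 to 17.6% of the counts in 482N1 and 8.30 to 10.5% in E0771-BrM, and mitochondrially encoded messenger RNAs took 1.69 to 1.80% and 1.00 to 1.19%. The part of these shares in the results was tested only by removing the ribosomal RNA genes, which left 8616 genes called. Libraries A and C of both lines also held more counts of melanocyte genes than library B. Dct, a pigment enzyme, had 353, 29 and 263 counts in E0771-BrM A, B and C and 142, 14 and 148 in those of 482N1, or 0.00979 to 0.26% of the B16F10-BrM mean. Library B of each line, with the fewest such counts, was therefore also compared on its own, borrowing the spread of the B16F10-BrM libraries.

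Most genes differed between the lines. The edgeR quasi-likelihood test with Benjamini-Hochberg adjustment at 0.05 called 8622 genes (78.1%), with E0771-BrM higher for 4159 (37.7%) and lower for 4463 (40.4%). Log2 differences are E0771-BrM minus 482N1 with the SE of the fit, every named gene with such a value was called unless stated otherwise, and levels are normalised CPM, that is read counts scaled to a common library size. The median log2 difference over all genes was -0.04, and the median size without sign was 0.79. Called genes with a difference of 2-fold or more made up 39.6% of all genes, namely 2022 higher (18.3%) and 2348 lower (21.3%). Those with 8-fold or more made up 8.74%, namely 363 higher and 602 lower. The libraries of the lines did not overlap for 8665 genes (78.5%). Against a null of a 2-fold change, 1516 genes were called higher and 1826 lower. These shares are the background for the counts given for each list.

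**Figure D1:**
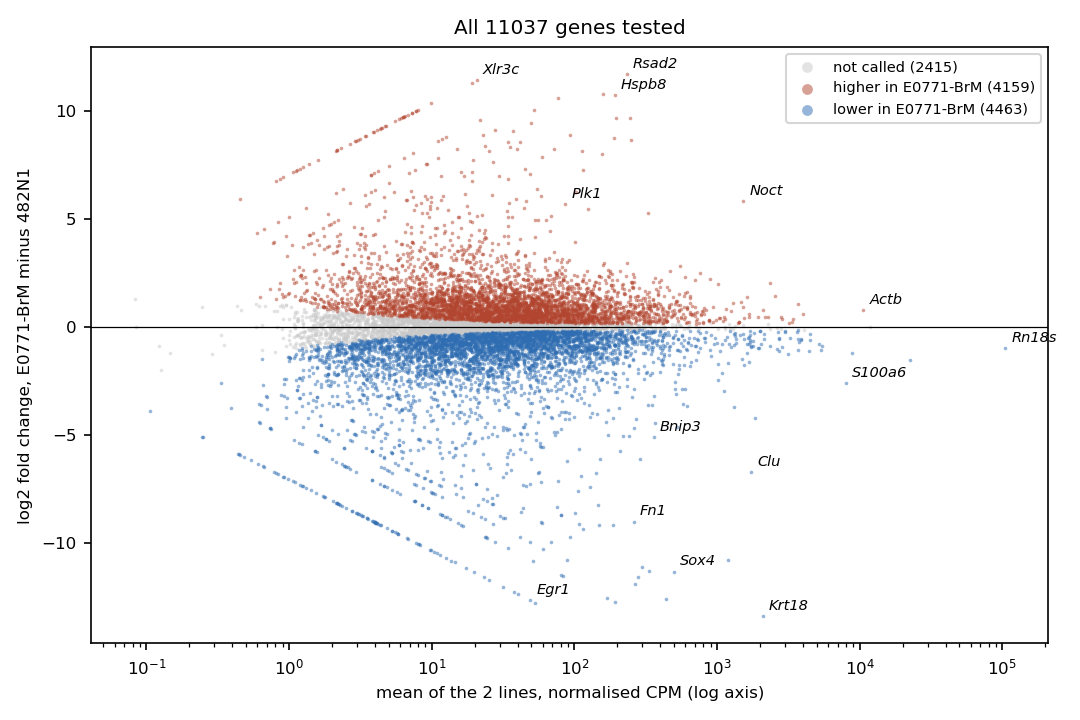
Log2 difference (E0771-BrM minus 482N1) against the mean normalised CPM of the lines on a log axis, with 1 point per gene. Red points are the 4159 genes called higher, blue points the 4463 called lower and grey points those not called, and points on the straight diagonal edges are genes with no count in 1 line, whose plotted value depends on the prior count.

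Changes of at least 8-fold were more frequent among low genes, at 18.9% of the 966 genes with a mean under 3 CPM against 4.8% of the 125 genes over 1000 CPM. Among these 125 abundant genes 78 were lower in E0771-BrM and 33 higher. Noct, a circadian deadenylase-family protein that acts on nicotinamide cofactors, had 2997, 3065 and 2950.0 CPM in the E0771-BrM libraries and 63.2, 44.3 and 53.5 CPM in those of 482N1. It was the one gene over 1000 CPM that was at least 8-fold higher in E0771-BrM, and the libraries of each line lay close together (5.81 ± 0.10; edgeR quasi-likelihood adjusted p = 2.6e-39). Clu, the extracellular chaperone clusterin, had 36.2, 32.3 and 29.5 CPM in the E0771-BrM libraries and 3564, 3412 and 3362 CPM in those of 482N1. S100a6, a small calcium-binding protein and the most abundant transcript of 482N1 apart from ribosomal RNA, had 2278, 2186 and 2211 CPM in the E0771-BrM libraries and 13674, 13661 and 13765 CPM in those of 482N1. Both were lower in E0771-BrM without overlap (-6.72 ± 0.10 and -2.62 ± 0.07). Hsp90ab1, a cytosolic chaperone among the 3 genes with most reads in E0771-BrM, did not pass the test (-0.02 ± 0.07).

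Several genes were abundant in one line and hardly counted in the other. Arhgdib, an inhibitor of GTPase cycling, had 494, 514 and 467 CPM in the E0771-BrM libraries and 0.645, 0.963 and 0.127 CPM in those of 482N1. Arhgap30 and Arhgap9, both GTPase-activating proteins, had 102, 102 and 107 CPM and 52.9, 58.0 and 54.4 CPM in E0771-BrM, against 2 counts each over the 3 libraries of 482N1. Apbb1ip, an adaptor of the small GTPase Rap1, had 216, 251 and 218 CPM in the E0771-BrM libraries and 1.03, 0.842 and 2.54 CPM in those of 482N1. These 4 genes are known mainly from blood cells, as is the integrin chain Itgb7 (6.07 ± 0.18). Of the 13 integrins measured 5 were higher and 6 lower, and of 3 leukocyte genes 2 were higher and 1 lower. Among genes hardly counted in E0771-BrM Pmepa1, a feedback inhibitor of TGF-beta signalling, had 532, 544 and 508 CPM in the 482N1 libraries and 0.127, 0 and 0.249 CPM in those of E0771-BrM. Basp1, a membrane protein of growth cones, had 637, 656 and 696 CPM in the 482N1 libraries and 0.508, 0.12 and 0.125 CPM in those of E0771-BrM, and Marcks, a protein kinase C substrate, had 219.7, 237 and 229 CPM in the 482N1 libraries and 0.508, 0 and 0.499 CPM in those of E0771-BrM. Egr1, an immediate early transcription factor, had 94.2, 101 and 97.9 CPM in 482N1 and no count in E0771-BrM, which puts it at least 789-fold lower there. Xlr3c, a gene of an X-linked lymphocyte-regulated family with near-identical copies, had 43.0, 42.8 and 38.2 CPM in E0771-BrM and no count in 482N1, so it was at least 330.1-fold higher, with the split among copies uncertain.

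**Figure D2:**
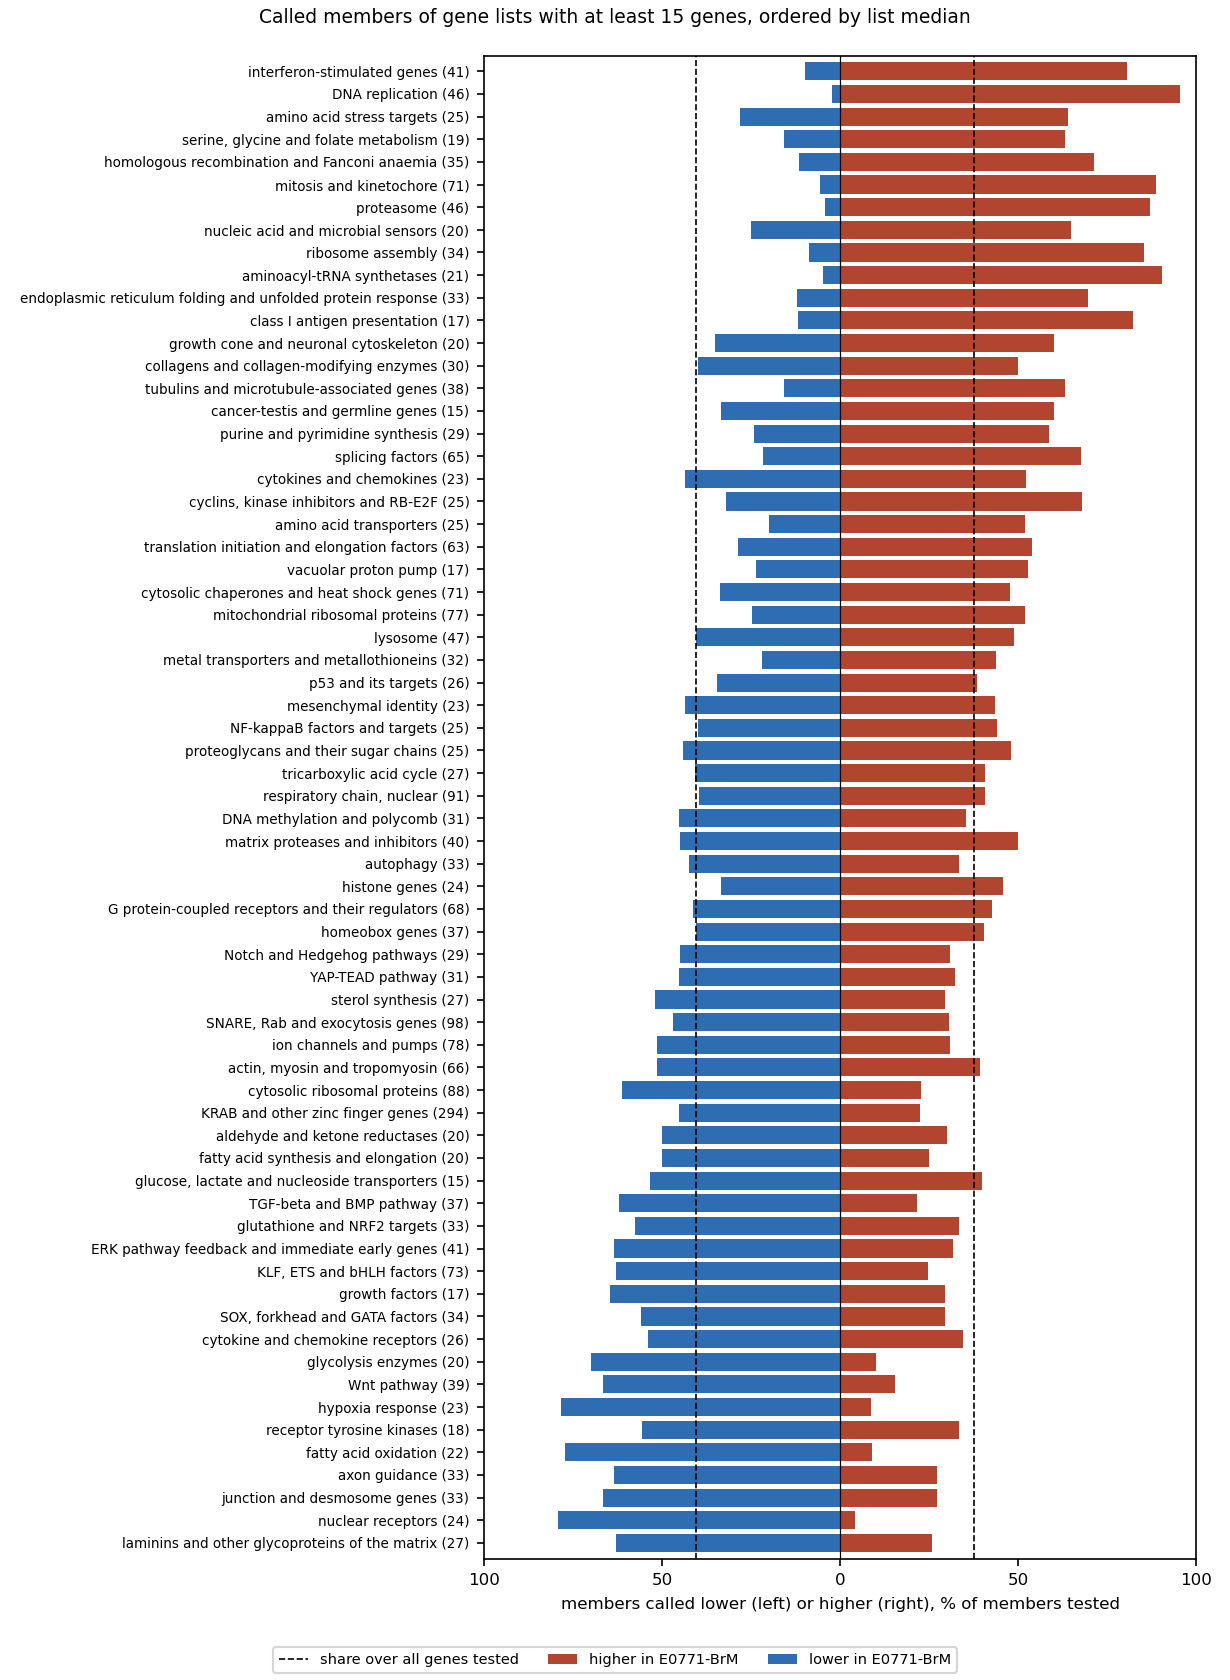
Share of members called higher (red, to the right) and lower (blue, to the left) in E0771-BrM for lists of at least 15 tested genes, with the number tested in parentheses and lists ordered by their median log2 difference. Dashed lines mark the shares over all genes tested, 37.7% higher and 40.4% lower, and DNA replication, the interferon-stimulated genes and the proteasome lie far to the right of them while nuclear receptors and fatty acid oxidation lie far to the left.

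Genes of chromosome copying were nearly all higher in E0771-BrM. Of 46 DNA replication genes 44 were higher and 1 lower, 37 of them by at least 2-fold, with a median log2 difference of 1.42 against -0.04 over all genes. Their summed level was 3689.5, 3953 and 3807 CPM in E0771-BrM libraries A, B and C and 1431, 1523 and 1478 CPM in those of 482N1, so the lines stood apart in every library. Prim2, the large subunit of the primase that starts each DNA strand, had 19.9, 16.8 and 19.3 CPM in the E0771-BrM libraries and 2.58, 1.08 and 2.15 CPM in those of 482N1 (3.27 ± 0.22). Cdc6, which loads the replicative helicase at origins, had 22.97, 33.8 and 31.5 CPM in the E0771-BrM libraries and 2.45, 4.57 and 2.79 CPM in those of 482N1 (3.16 ± 0.20). Clspn, an adaptor of the replication checkpoint, and Pole2, a subunit of the leading-strand polymerase, were higher by 2.74 ± 0.13 and 2.62 ± 0.20. All members of the helicase ring measured, Mcm2 to Mcm7, were among the higher genes, from 1.02 for Mcm4 to 2.38 for Mcm5; this family was looked at after its values had been seen. Gins4, a subunit of the same helicase, was the 1 lower member (-0.56 ± 0.11); it was not called in library B alone (-0.30).

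Mitosis genes followed, with 63 of 71 higher, 4 lower and a median of 1.05. Plk1, the kinase that drives entry into and passage through mitosis, had 169, 176 and 160.1 CPM in the E0771-BrM libraries and 1.81, 4.45 and 3.42 CPM in those of 482N1. Its difference was the largest of the list (5.69 ± 0.14; edgeR quasi-likelihood adjusted p = 2.4e-33), and the next, Mad1l1 of the spindle checkpoint, was 2.49 ± 0.13. The motor Kif4 (2.14 ± 0.11) and the kinetochore protein Nuf2 (2.12 ± 0.13) were also higher. The lower members included Bub3, another checkpoint protein (-1.28 ± 0.10), and Ube2c, a ubiquitin carrier of the anaphase-promoting complex (-0.62 ± 0.07). Mki67, the proliferation marker Ki-67, had 159, 169 and 157 CPM in the E0771-BrM libraries and 124, 151 and 164 CPM in those of 482N1 and did not pass the test; it was chosen after its values had been seen. The groups overlapped for Mki67, so this common marker did not separate the lines while the lists around it did.

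Repair by homologous recombination and the Fanconi pathway had 25 of 35 genes higher and 4 lower, with a median of 1.05. Fanca, a core member of the Fanconi complex, had 36.04, 31.8 and 35.7 CPM in the E0771-BrM libraries and 2.06, 2.41 and 3.17 CPM in those of 482N1, with no overlap (3.75 ± 0.19). The nuclease Exo1 (2.57 ± 0.20) and the checkpoint kinase Chek1 (2.48 ± 0.16) were higher. Among cyclins, kinase inhibitors and RB-E2F genes 17 of 25 were higher and 8 lower. Ccne1, the cyclin of S-phase entry, and the repressor E2f7 were higher (2.47 ± 0.20 and 2.51 ± 0.18). Ccnd1, cyclin D1, had 383, 356 and 361 CPM in the E0771-BrM libraries and 1109, 1113 and 978 CPM in those of 482N1, and the inhibitor Cdkn1b was lower as well (-1.62 ± 0.09). Rrm2, the regulated subunit of the enzyme that makes deoxynucleotides, had 128, 144 and 125 CPM in the E0771-BrM libraries and 4.39, 3.85 and 3.17 CPM in those of 482N1 and was the largest difference among 29 purine and pyrimidine synthesis genes, of which 17 were higher and 7 lower (median 0.50).

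Genes for p53 and its targets were split, with 10 of 26 higher and 9 lower. Trp53 itself had 5.71, 8.88 and 8.73 CPM in E0771-BrM and 1 count over the 3 libraries of 482N1, a ratio of 187 (95% interval 33.1 to 7416) where the interval covers counting error only. Targets were found on both sides: Sesn2, also an amino acid stress gene, and Ei24 were higher (2.71 ± 0.21 and 1.18 ± 0.12), and Ephx1, Btg2, Pmaip1 and Tnfrsf10b were lower (-5.61 ± 0.25, -4.73 ± 0.35, -2.42 ± 0.18 and -2.25 ± 0.17). Histone genes were mixed too (11 of 24 higher, 8 lower), although most histone messages lack a poly(A) tail and near-identical copies make their counts uncertain. Of 31 DNA methylation and polycomb genes 11 were higher and 14 lower. Dnmt1, the maintenance DNA methyltransferase, had 166, 199.8 and 198 CPM in the E0771-BrM libraries and 40.5, 46.0 and 41.3 CPM in those of 482N1 and stood apart without overlap (2.14 ± 0.09). Dnmt3b and Bmi1 were higher (3.61 ± 0.38 and 2.07 ± 0.10), and the histone demethylase Kdm6a was lower (-3.50 ± 0.16).

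**Figure D3:**
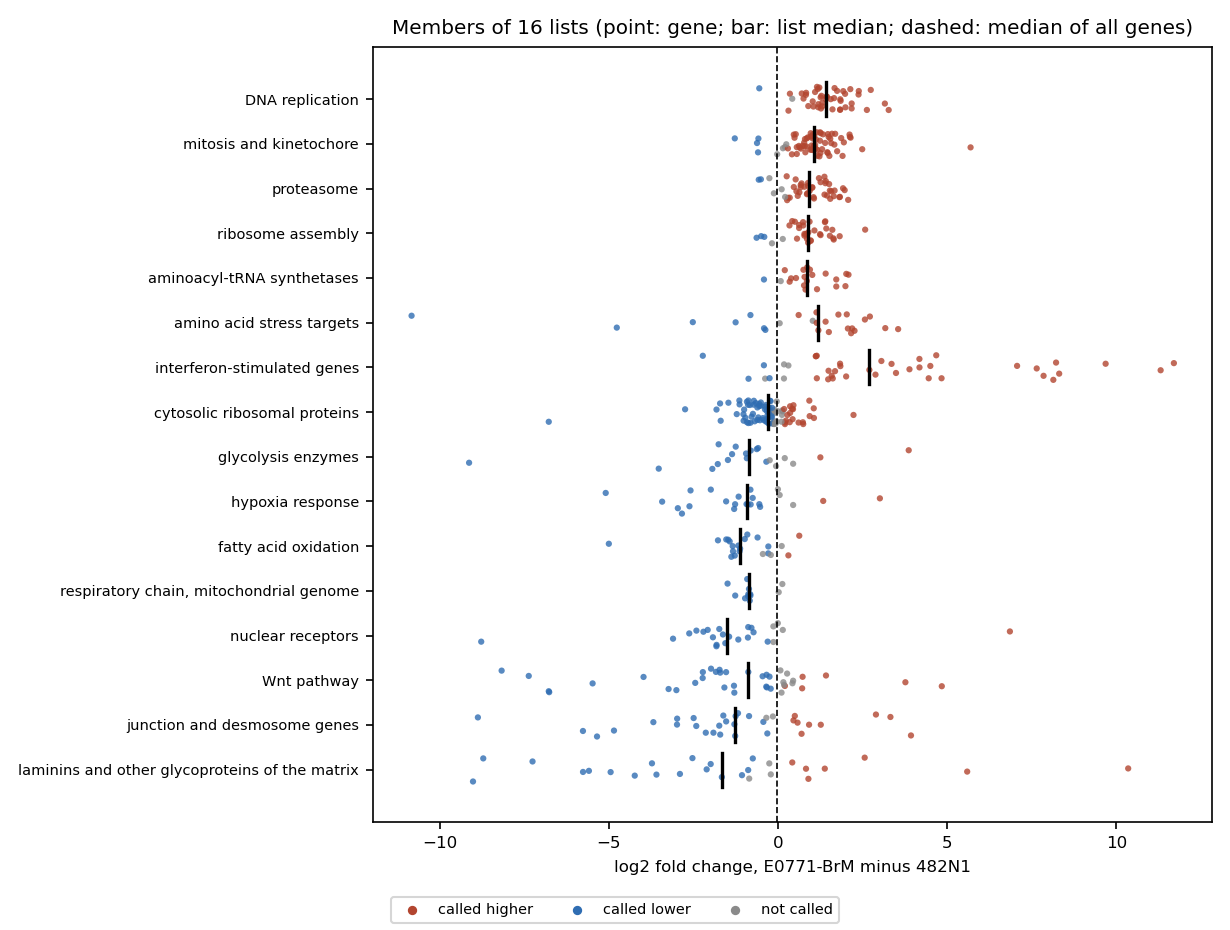
Log2 difference (E0771-BrM minus 482N1) of every tested member of 16 lists, 1 point per gene, coloured by call, with the list median as a black bar and the median of all genes as a dashed line. DNA replication genes sit almost wholly to the right of 0 with a median of 1.42, and nuclear receptors mostly to the left with a median of -1.50.

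Several groups of genes that make and remove proteins were mostly higher in E0771-BrM, while the cytosolic ribosomal proteins were mostly lower and the lysosome and autophagy lists were near the background. Of 46 proteasome genes 40 were higher and 2 lower (median 0.91), and their summed level was 11576, 12233 and 11762 CPM in E0771-BrM against 5774, 5748 and 5666 CPM in 482N1. Psmb3 and Psmb5, subunits of the proteolytic core, had 414, 439.6 and 369.5 CPM and 349.6, 359 and 339 CPM in E0771-BrM against 111, 95.9 and 83.5 CPM and 89.5, 87.3 and 90.9 CPM in 482N1. Psmc2, an ATPase of the cap, was higher by 1.92 ± 0.08. The lower members were Psmd14, the deubiquitinase of the cap (-0.51 ± 0.09), and Psme3ip1, caught by its symbol and not a subunit (-0.57 ± 0.11). No proteasome gene reached 8-fold, so the list moved by many differences of moderate size.

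Ribosome assembly genes were higher in 29 of 34 cases and lower in 3 (median 0.87). Ddx21, a nucleolar RNA helicase, had 746, 809 and 835 CPM in the E0771-BrM libraries and 125, 155 and 121 CPM in those of 482N1 and led the list (2.57 ± 0.08). The abundant nucleolar protein Npm1 was lower (-0.50 ± 0.07). Cytosolic ribosomal protein genes went the other way, with 20 of 88 higher, 54 lower and a median of -0.29. Their summed level was 135269, 134678 and 128671 CPM in E0771-BrM and 167937, 155546 and 162802 CPM in 482N1. The sum over all genes was lower in E0771-BrM as well, with means of 944805 against 1119440 CPM. Rps13 had 1463, 1530.3 and 1406 CPM in the E0771-BrM libraries and 334, 279 and 325 CPM in those of 482N1 and was higher (2.23 ± 0.07), whereas Rpl13a and Rpl39 were lower (-1.82 ± 0.08 and -1.71 ± 0.07). Such genes have many processed copies in the genome, and Rps3a3, one of them by its symbol, was lower by far the most (-6.78 ± 0.13), so the split of reads among copies is uncertain. Splicing factors were higher in 44 of 65 cases and lower in 14 (median 0.48), led by Sf3b5, a small subunit of the branch-point complex (5.09 ± 0.16). Translation factors had 34 of 63 higher and 18 lower, with the cap-binding variant Eif4e3 at 2.98 ± 0.16 and the helicase Eif4a2 at -2.18 ± 0.08.

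Folding genes of the endoplasmic reticulum were higher in 23 of 33 cases and lower in 4 (median 0.82). Hspa5, the main chaperone there, had 2329, 2453 and 2227 CPM in the E0771-BrM libraries and 893, 855 and 952 CPM in those of 482N1 (1.38 ± 0.07), and the disulphide isomerase Pdia5 was higher too (2.53 ± 0.19). Ero1a, an oxidase that is also a hypoxia gene, had 525, 358 and 919 CPM in the 482N1 libraries and 206, 199 and 217 CPM in those of E0771-BrM and was the largest decrease of the list (-1.53 ± 0.34), with wide spread among the 482N1 libraries. Among 71 cytosolic chaperones 34 were higher and 24 lower: the constitutive Hspa8 and the nucleotide exchange factor Hsph1 were higher (2.00 ± 0.07 and 2.65 ± 0.08), and the stress-inducible Hspa1b and the testis-enriched Hspa2 were lower (-2.20 ± 0.27 and -2.04 ± 0.20). The lysosome list was near the background, with 23 of 47 higher and 19 lower. It held opposite extremes: the cholesterol transporter Npc1 was higher (2.97 ± 0.12), and Ctsc, the activating protease cathepsin C, had 36.9, 34.2 and 33.0 CPM in 482N1 and no count in E0771-BrM (at least 280.0-fold lower).

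Targets of ATF4, the factor made when amino acids run short or the endoplasmic reticulum is strained, were higher as a rule. Of 25 amino acid stress genes 16 were higher and 7 lower (median 1.19), and 15 of the higher ones reached 2-fold. Their summed level was 3931, 3485 and 3165 CPM in E0771-BrM A, B and C and 1524, 1431 and 1679 CPM in 482N1, and 22 of the 25 were highest in library A among the E0771-BrM libraries. Trib3, a pseudokinase induced by ATF4, had 147, 112 and 99.4 CPM in the E0771-BrM libraries and 13.3, 11.19 and 15.3 CPM in those of 482N1 (3.17 ± 0.13). Slc7a5, the leucine transporter, had 37.6, 28.2 and 30.05 CPM in the E0771-BrM libraries and 3.1, 3.13 and 1.9 CPM in those of 482N1 (3.55 ± 0.18). Atf4 had 1278, 1128 and 1054 CPM in the E0771-BrM libraries and 236, 244 and 296 CPM in those of 482N1, without overlap (2.16 ± 0.09), and Ddit3, the partner factor CHOP, had 174, 121 and 119 CPM in the E0771-BrM libraries and 44.9, 37.1 and 122 CPM in those of 482N1 and was not called; both were chosen after their values had been seen. For Ddit3 library C of 482N1 lay within the E0771-BrM range, and libraries A and B lay below it. The lower members were led by Vldlr, a lipoprotein receptor with 1 count in E0771-BrM against 98.3, 86.1 and 124 CPM in 482N1, and Cth, which makes cysteine (-4.77 ± 0.49).

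The C/EBP-ATF response element (CARE) is the sequence to which ATF4 binds with a C/EBP partner. The letters TGATGNAA were searched on both strands in RefSeq promoters of build GRCm38.p6, from 250 bases before to 50 bases after each start, taking any promoter of a gene and counting overlapping matches once. They were found for 8 of the 22 amino acid stress genes with a promoter (36.4%) and 5 of 14 aminoacyl-tRNA synthetase genes (35.7%), against 2.6% of the 8578 tested genes with a promoter and 4.51% of all 27025 genes in the table. Of the former 8 genes 5 were higher and 3 lower, and all 5 synthetase genes were higher. Among genes of the same lists without CARE letters 10 of 14 amino acid stress genes were higher and 2 lower, and 7 of 9 synthetase genes were higher and 1 lower. The promoters of 4 higher genes are shown as examples, with that of Pycr1, the last enzyme of proline synthesis, as a lower gene with the same letters. Each line gives the 130 bases before the start, 5′ to 3′ on the gene's strand, and capitals mark the match on either strand.
Atf3: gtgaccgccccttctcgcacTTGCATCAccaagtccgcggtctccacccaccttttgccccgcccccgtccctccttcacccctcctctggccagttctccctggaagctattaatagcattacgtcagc
Asns: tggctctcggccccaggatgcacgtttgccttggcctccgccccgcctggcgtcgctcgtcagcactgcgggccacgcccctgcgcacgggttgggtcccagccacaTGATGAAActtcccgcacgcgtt
Slc7a11: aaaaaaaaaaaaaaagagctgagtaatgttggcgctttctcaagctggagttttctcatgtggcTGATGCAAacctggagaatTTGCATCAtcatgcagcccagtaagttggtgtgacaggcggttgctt
Aars: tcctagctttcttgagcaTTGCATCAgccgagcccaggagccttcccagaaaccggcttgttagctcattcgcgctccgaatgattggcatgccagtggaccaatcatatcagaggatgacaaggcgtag
Pycr1: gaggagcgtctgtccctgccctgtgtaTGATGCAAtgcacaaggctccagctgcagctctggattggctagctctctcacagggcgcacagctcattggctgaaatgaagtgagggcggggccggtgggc
They lie at chr1:191183334-191183463 for Atf3, chr6:7693210-7693339 for Asns and chr3:50443614-50443743 for Slc7a11, all on the minus strand, chr8:111033712-111033841 on the plus strand for Aars and chr11:120643749-120643878 on the minus strand for Pycr1. Asns, asparagine synthetase, had 249.5, 229.9 and 213 CPM in the E0771-BrM libraries and 65.3, 63.3 and 72.5 CPM in those of 482N1, and Slc7a11, the cystine importer with a pair of matches, had 47.5, 31.8 and 33.4 CPM in the E0771-BrM libraries and 19.2, 16.7 and 13.3 CPM in those of 482N1. Pycr1 had 15.99, 15.8 and 14.6 CPM in the E0771-BrM libraries and 38.2, 35.5 and 37.1 CPM in those of 482N1, so the same letters stood in front of genes that differed in opposite directions (1.78 ± 0.09, 1.19 ± 0.15 and -1.25 ± 0.13). A match describes the sequence only, and these 5 examples were picked after their values had been seen.

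Genes of neighbouring pathways of amino acid use were also higher as a rule. Aminoacyl-tRNA synthetases, which charge transfer RNAs, were higher in 19 of 21 cases and lower in 1 (median 0.85). Rars, for arginine, had 409.7, 417 and 435 CPM in the E0771-BrM libraries and 90.5, 107 and 101 CPM in those of 482N1 (2.08 ± 0.08), and Aars, for alanine, had 184, 175 and 150.5 CPM in the E0771-BrM libraries and 49.8, 39.4 and 39.2 CPM in those of 482N1 (1.99 ± 0.10). Serine, glycine and folate genes had 12 of 19 higher and 3 lower (median 1.14), and 6 of the 19 are also amino acid stress genes. Mthfd2, a mitochondrial folate enzyme, had 323, 327 and 264 CPM in the E0771-BrM libraries and 57.1, 47.9 and 49.3 CPM in those of 482N1, and its partner Shmt2 was higher as well (2.57 ± 0.09 and 2.26 ± 0.09). Among amino acid transporters 13 of 25 were higher and 5 lower, with a median of 0.38 that was 0.18 without E0771-BrM library A. Besides Slc7a5 these included Slc7a1, for basic amino acids (1.61 ± 0.08), and against them stood Slc7a3, a relative of it (-2.52 ± 0.32). The media supply amino acids at different concentrations, and their part in these differences cannot be told apart from that of the line.

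Genes of glycolysis and of the response to low oxygen were mostly lower in E0771-BrM. Of 20 glycolysis enzymes 14 were lower and 2 higher, with a median of -0.87, and of 23 hypoxia genes 18 were lower and 2 higher, with a median of -0.93; Pfkfb4 belongs to both lists. The summed glycolysis level was 7272, 7661 and 7286 CPM in E0771-BrM A, B and C and 15451, 12871 and 17224 CPM in those of 482N1, and the summed hypoxia level was 1753, 1848 and 1992 CPM and 3846, 3235 and 5213 CPM. The groups did not overlap, but the 482N1 libraries differed among themselves: 20 of the 23 hypoxia genes were highest in C, and 16 were lowest in B. With library B of each line alone the medians were -0.51 for glycolysis and -0.85 for hypoxia.

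Bnip3, a mitophagy receptor and direct hypoxia target, had 696, 563 and 832 CPM in the 482N1 libraries and 19.4, 17.5 and 24.3 CPM in those of E0771-BrM and the largest decrease among hypoxia genes (-5.09 ± 0.27; edgeR quasi-likelihood adjusted p = 1.6e-06). Vegfa, the vascular growth factor, had 146, 168 and 209.6 CPM in the 482N1 libraries and 24.5, 19.3 and 23.6 CPM in those of E0771-BrM (-2.96 ± 0.12). Pdk1, which keeps pyruvate out of the mitochondrion, had 139, 113 and 140.1 CPM in the 482N1 libraries and 18.8, 22.8 and 22.1 CPM in those of E0771-BrM (-2.62 ± 0.11). Each of these was lower in all E0771-BrM libraries, with the highest 482N1 value in library C. Egln3, an oxygen-sensing hydroxylase that is itself a hypoxia target, went the other way at 138, 155 and 182 CPM in the E0771-BrM libraries and 19.99, 17.8 and 21.3 CPM in those of 482N1 (3.01 ± 0.11), as did the lactate exporter Slc16a3 (1.33 ± 0.09). Among the enzymes Aldoc, a brain-enriched aldolase, had 9 counts in E0771-BrM and 217, 175 and 258 CPM in 482N1 (-9.13 ± 0.25). The muscle forms Eno3 and Pfkm were lower (-3.53 ± 0.13 and -1.94 ± 0.13), as was Gpi1 (-1.78 ± 0.14), and the neuronal enolase Eno2 was higher from a low level (3.86 ± 0.42). Ldha, lactate dehydrogenase A, chosen after its values were seen, had 2153, 1929.5 and 2553 CPM in the 482N1 libraries and 764, 807 and 805 CPM in those of E0771-BrM (-1.48 ± 0.08). Bsg, the chaperone of lactate transporters, had 1168, 864 and 1415 CPM in the 482N1 libraries and 95.05, 91.2 and 86.7 CPM in those of E0771-BrM (-3.66 ± 0.21), again highest in 482N1 C.

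**Figure D4:**
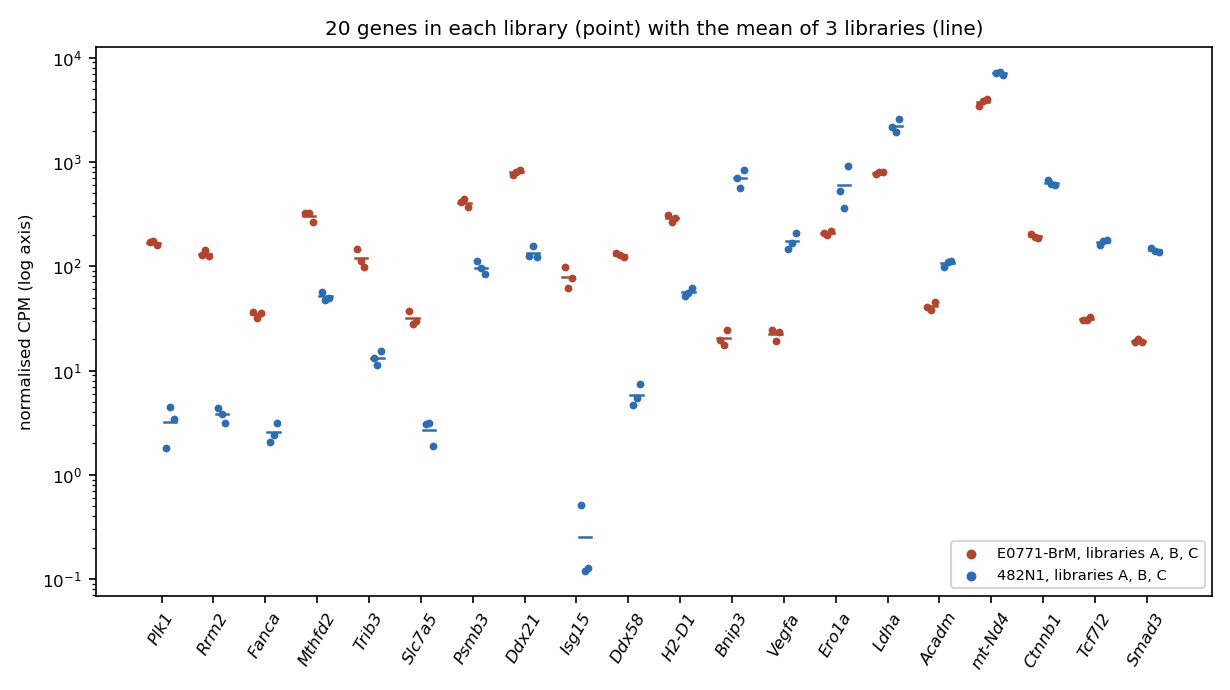
Normalised CPM on a log axis of 20 genes in each library, with red points for E0771-BrM A, B and C, blue points for 482N1 A, B and C, and a line at the mean of each line. The groups are separate for every gene drawn, and the 482N1 points of Ero1a and Bnip3 are lowest in library B and highest in C.

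The pentose phosphate branch of glucose use was split by enzyme. Rpia, Pgd and Taldo1 were higher (2.64 ± 0.13, 2.04 ± 0.09 and 1.78 ± 0.08), and Pgls and Tkt were lower (-2.66 ± 0.10 and -0.65 ± 0.07), with 5 of 8 higher in all. The tricarboxylic acid cycle had 11 of 27 higher and 11 lower, and the nuclear genes of the respiratory chain 37 of 91 higher and 36 lower, both close to the background. Of the 12 measured genes of the mitochondrial genome 10 were lower and none was higher, and the median was -0.87. Their sum was 9321, 10019.5 and 11322 CPM in E0771-BrM and 18716, 20169.9 and 19174 CPM in 482N1. mt-Nd4, a complex I subunit, had 7174, 7293 and 6767 CPM in the 482N1 libraries and 3407, 3831 and 4051 CPM in those of E0771-BrM (-0.91 ± 0.08). The mitochondrial ribosomal RNAs mt-Rnr1 and mt-Rnr2 were lower (-1.21 ± 0.18 and -1.52 ± 0.20), as was the cytosolic ribosomal RNA Rn18s (-0.97 ± 0.08). Poly(A) selection removes most ribosomal RNA, and the part of that step in these values was not tested.

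Fatty acid oxidation genes were mostly lower in E0771-BrM, with 17 of 22 genes lower, 2 higher and a median of -1.13. The sum was 777, 807 and 767 CPM against 1339, 1341 and 1364 CPM, so both groups were tight and apart. Cpt1a, which admits fatty acids to the mitochondrion, had 57.3, 67.2 and 65.4 CPM in the 482N1 libraries and 25, 23.5 and 19.9 CPM in those of E0771-BrM (-1.47 ± 0.11). Cpt2, the inner-membrane partner of Cpt1a, was among the 2 higher genes (0.63 ± 0.15). Fatty acid synthesis genes had 5 of 20 higher and 10 lower: Acaca and Fasn, the committed and the chain-building enzymes, were higher (1.32 ± 0.11 and 1.03 ± 0.13), and Me1, a source of NADPH, and the desaturase Scd2 were lower (-3.60 ± 0.09 and -2.25 ± 0.09). Sterol synthesis had 8 of 27 higher and 14 lower, with the feedback gene Insig1 higher (2.09 ± 0.12) and Ebp and Fdft1 lower (-1.63 ± 0.09 and -1.47 ± 0.13).

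Glutathione and NRF2 target genes had 11 of 33 higher and 19 lower (median -0.48), and all 6 that reached 8-fold were lower. Gstm5, a glutathione transferase of a family with similar copies, had 60.6, 55.4 and 63.9 CPM in the 482N1 libraries and 0.127, 0.12 and 0.125 CPM in those of E0771-BrM, and Mgst3 was lower too (-5.24 ± 0.39). Srxn1, which restores peroxiredoxins, had 129, 128 and 121 CPM in the E0771-BrM libraries and 24.9, 22.03 and 24.1 CPM in those of 482N1 (2.41 ± 0.10). Fth1, the ferritin heavy chain that stores iron, had 3887, 3914 and 3555 CPM in the E0771-BrM libraries and 978, 866 and 901 CPM in those of 482N1 and was one of the largest increases in CPM of any gene (2.05 ± 0.07). The iron importers Tfrc and Slc11a2 were higher as well (2.76 ± 0.10 and 2.76 ± 0.15), with 137, 145 and 145 CPM in the E0771-BrM libraries and 17.2, 20.2 and 25.5 CPM in those of 482N1 for Tfrc, while the list of metal transporters and metallothioneins as a whole had 14 of 32 higher and 7 lower.

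Interferon-stimulated genes showed the largest list median of all lists of at least 15 genes. Of 41 measured 33 were higher in E0771-BrM, all 33 by at least 2-fold and 19 by at least 8-fold, and 4 were lower; the median was 2.70. The summed level was 3124, 2723 and 2718 CPM in E0771-BrM A, B and C and 697, 721 and 690.2 CPM in 482N1, and 27 of the 41 were highest in E0771-BrM A. Cmpk2, a mitochondrial nucleotide kinase next to Rsad2 in the antiviral set, had 43.9, 36.5 and 34.5 CPM in E0771-BrM and no count in 482N1 (at least 305-fold higher). Trim30a, a ubiquitin ligase, had 64.8, 75.9 and 71.9 CPM in the E0771-BrM libraries and 0, 0 and 0.634 CPM in those of 482N1 (8.31 ± 0.31). Irf9, which helps to carry the interferon signal to the nucleus, had 64.2, 65.0 and 71.3 CPM in the E0771-BrM libraries and 22.2, 25.5 and 19.01 CPM in those of 482N1 (1.59 ± 0.12); it was chosen after its values had been seen. The 4 lower members were Ifitm2, Lgals9, Ifi203 and Lgals3bp, from -2.22 ± 0.10 to -0.25 ± 0.09, and Lgals3bp was not called without 482N1 library A (-0.20) or without E0771-BrM library C (-0.20).

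The interferon-stimulated response element (ISRE), the sequence bound by IRF9 with its partners and by other IRF factors, was searched in the same promoters as GAAA, any 2 bases and GAAA again, on both strands. It was found for 20 of the 33 interferon-stimulated genes with a promoter (60.6%), against 3.54% of tested genes and 3.99% of all genes in the table. Among these 20 genes 17 were higher and 3 lower, with a median log2 difference of 3.90. Among the 13 without a match 9 were higher and 1 lower, with a median of 1.68. In class I antigen presentation genes the share with ISRE letters was 31.2% of 16, and in nucleic acid sensors 26.7% of 15. Of all genes with a promoter it was 8.68% of the 265 called at least 8-fold higher and 3.72% of the 457 called at least 8-fold lower. The promoters of 4 higher genes and that of Ifitm2, a lower gene, are shown in the same way as before.
Rsad2: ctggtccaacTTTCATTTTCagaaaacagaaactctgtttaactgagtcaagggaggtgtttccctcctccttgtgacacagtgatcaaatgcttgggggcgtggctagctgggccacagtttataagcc
Isg15: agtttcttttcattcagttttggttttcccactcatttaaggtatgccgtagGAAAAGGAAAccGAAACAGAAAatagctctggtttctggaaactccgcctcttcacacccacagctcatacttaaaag
Ifit1: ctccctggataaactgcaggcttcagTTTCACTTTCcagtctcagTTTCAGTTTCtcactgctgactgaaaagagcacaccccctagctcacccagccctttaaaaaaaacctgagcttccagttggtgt
Gbp7: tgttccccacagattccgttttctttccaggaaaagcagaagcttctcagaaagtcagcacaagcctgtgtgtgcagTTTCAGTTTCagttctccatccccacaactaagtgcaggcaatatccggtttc
Ifitm2: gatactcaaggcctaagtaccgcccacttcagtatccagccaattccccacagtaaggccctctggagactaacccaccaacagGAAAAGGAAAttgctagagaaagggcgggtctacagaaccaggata
The regions are chr12:26456453-26456582 on the minus strand for Rsad2, chr4:156200819-156200948 on the minus strand for Isg15, chr19:34640759-34640888 on the plus strand for Ifit1, chr3:142530206-142530335 on the plus strand for Gbp7 and chr7:140955962-140956091 on the minus strand for Ifitm2. Isg15, a ubiquitin-like antiviral protein, had marked matches 78 and 66 bases before its start. A further match, GAAACCGAAA, overlaps both of them and was not counted, so its middle bases stand in lower case. Isg15 had 97.6, 61.8 and 77.7 CPM in the E0771-BrM libraries and 0.516, 0.12 and 0.127 CPM in those of 482N1. Ifitm2, with a match 46 bases before its start, had 29.6, 23.9 and 23.1 CPM in the E0771-BrM libraries and 110.4, 121 and 126 CPM in those of 482N1. The same letters thus stood before a gene that was 8.22 higher and one that was -2.22 on the log2 scale, and the examples were picked after their values were seen.

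Genes of antigen presentation and the sensors that start an interferon response were also mostly higher. Of 17 class I genes 14 were higher and 2 lower (median 0.82). H2-D1, a class I heavy chain whose relatives are similar in sequence, had 307, 264 and 291 CPM in the E0771-BrM libraries and 52.1, 55.1 and 61.3 CPM in those of 482N1 (2.35 ± 0.09). Erap1, which trims peptides, and Cd274, the checkpoint ligand PD-L1, were higher (3.24 ± 0.17 and 3.32 ± 0.19). Psmb10, Psme1 and Psme2 of this list are counted in the proteasome list as well. Of 20 sensors, 3 of which are also interferon-stimulated, 13 were higher and 5 lower (median 0.88). Ddx58, the RNA sensor RIG-I, had 133, 129 and 122 CPM in the E0771-BrM libraries and 4.64, 5.42 and 7.48 CPM in those of 482N1, and the DNA sensor Cgas and its partner Sting1 were higher (4.45 ± 0.14, 3.27 ± 0.21 and 1.88 ± 0.15). Mavs, the adaptor that RIG-I needs, and the pore protein Gsdmd were lower (-0.81 ± 0.11 and -2.62 ± 0.15).

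Secreted immune proteins were split. Of 23 cytokine and chemokine genes 12 were higher and 10 lower, and 19 of these 22 reached 2-fold. Ccl5, a chemokine for T cells, had 157, 138 and 133 CPM in the E0771-BrM libraries and 0.903, 0.241 and 0.254 CPM in those of 482N1. Cxcl10, another and one that interferon induces, had 38.2, 31.9 and 30.4 CPM in the E0771-BrM libraries and 0.129, 0.12 and 0.507 CPM in those of 482N1. Ccl2, for monocytes, was higher by 5.08 ± 0.18, and Cxcl1, for neutrophils, had 44.4, 23.6 and 35.0 CPM in the E0771-BrM libraries and 2.06, 2.29 and 2.03 CPM in those of 482N1. Cx3cl1, a membrane-bound chemokine, had 92.9, 85.1 and 81.9 CPM in the 482N1 libraries and 4.31, 2.88 and 4.36 CPM in those of E0771-BrM, and Spp1, osteopontin, had 878, 888 and 843 CPM in the 482N1 libraries and 161, 136 and 153 CPM in those of E0771-BrM. Ccl5 and Cxcl10 were thus on the higher side, with Cx3cl1, Cxcl16, Il34 and Spp1 on the lower (-4.49 ± 0.15, -3.00 ± 0.30, -2.56 ± 0.13 and -2.53 ± 0.07). Receptors for cytokines were lower in 14 of 26 cases and higher in 9 (median -0.77, or -1.52 for the 17 with a mean of at least 10 CPM); Il4ra had 116, 106 and 92.0 CPM in the 482N1 libraries and 8.88, 11.16 and 9.1 CPM in those of E0771-BrM. NF-kappaB genes were near the background, with 11 of 25 higher and 10 lower: Nfkbia and Tnfaip2 were higher (2.07 ± 0.08 and 2.31 ± 0.10), and Bcl3 and Vcam1 lower (-5.38 ± 0.24 and -5.06 ± 0.19).

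The matrix differed by component. Among collagens on the higher side Col5a1 had 139, 143 and 122.9 CPM in the E0771-BrM libraries and 15.3, 16.1 and 16.1 CPM in those of 482N1 (3.09 ± 0.11), Col5a3 and Col16a1 were higher by 8.12 ± 0.28 and 6.08 ± 0.21, and the collagen lysyl hydroxylase Plod1 by 3.39 ± 0.13. Col8a1, Col6a1 and Col4a5 were lower; Col8a1 had 88.6, 82.7 and 79.5 CPM in the 482N1 libraries and 2.41, 2.52 and 1.62 CPM in those of E0771-BrM, and Col4a5, a basement membrane chain, had no count in E0771-BrM (at least 126-fold lower). In all 15 of 30 collagen genes were higher and 12 lower. Of 27 laminins and other glycoproteins 17 were lower and 7 higher, with a median of -1.66. Fbln2, a binder of basement membranes, had 422, 406 and 405 CPM in the 482N1 libraries and 7.74, 8.28 and 6.61 CPM in those of E0771-BrM, and Ccn2, a matricellular factor, had 165, 164 and 157 CPM in the 482N1 libraries and 0.254, 0.24 and 0.623 CPM in those of E0771-BrM. Fbn1, the fibrillin of microfibrils, had 19.2, 18.5 and 21.4 CPM in E0771-BrM and no count in 482N1 (at least 157-fold higher), and the basement membrane linker Nid1 was higher (2.56 ± 0.09).

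Receptors for the matrix and its proteases were mixed. Among 13 integrins 5 were higher and 6 lower: Itga6, Itgb4, Itga3 and Itga2, chains of laminin and collagen receptors, were lower, and Itga6 had 909, 928 and 869 CPM in the 482N1 libraries and 126, 120.1 and 116 CPM in those of E0771-BrM (-2.90 ± 0.07; Itgb4 -8.07 ± 0.31). Of 40 matrix proteases and inhibitors 20 were higher and 18 lower, of which 7 higher and 2 lower genes reached 8-fold. Adamts14, which trims procollagens, was higher (5.61 ± 0.32). Timp2, an inhibitor of matrix metalloproteases, had 1104, 1104 and 955 CPM in the 482N1 libraries and 143, 142 and 145 CPM in those of E0771-BrM (-2.88 ± 0.08), and Timp3 had 1 count in E0771-BrM against 34.2, 35.1 and 30.5 CPM.

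Cell-cell contact genes were lower in E0771-BrM. Of 33 junction and desmosome genes 22 were lower and 9 higher (median -1.27). Cgnl1, a tight-junction scaffold, had 151, 159.6 and 129.7 CPM in the 482N1 libraries and 6.22, 3.72 and 5.36 CPM in those of E0771-BrM (-4.85 ± 0.16). Pkp3, a desmosomal plakophilin, and Gja1, connexin 43, were higher (3.93 ± 0.19 and 2.89 ± 0.14). All 11 cadherins and relatives were called, 9 lower and 2 higher; the median was -4.44, or -3.68 with genes without counts set at their bound, and it was -2.50 for the 5 with a mean of at least 10 CPM. Cdh2, N-cadherin, had 80.0, 98.5 and 92.7 CPM in the 482N1 libraries and 0.634, 0.6 and 0.374 CPM in those of E0771-BrM, and Pcdh7 had 1 count in E0771-BrM against 46.4, 52.1 and 45.4 CPM. The calsyntenin Clstn1 was on the higher side (1.81 ± 0.10). Of 10 keratins and other intermediate filaments 3 were higher and 6 lower. The largest decrease was that of Krt18, a keratin of simple epithelia, with 4329, 3924 and 4287 CPM in the 482N1 libraries and 0.381, 0 and 0.748 CPM in those of E0771-BrM (-13.40 ± 0.17), and its partner Krt8 was lower too (-4.22 ± 0.08). Vim, the mesenchymal filament, was also the more abundant in 482N1, at 6987, 6646 and 8238 CPM against 3407, 3397 and 3574 CPM, while the lamins Lmnb1 and Lmnb2 were higher in E0771-BrM (1.51 ± 0.08 and 1.62 ± 0.13).

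The cytoskeleton lists differed in direction. Tubulins and microtubule-associated genes were higher in 24 of 38 cases and lower in 6 (median 0.66), with the neuronal proteins Map6 and Dclk1 at 4.57 ± 0.23 and 5.79 ± 0.27. Map2, a dendrite protein, had 19.7, 18.9 and 20.8 CPM in 482N1 and no count in E0771-BrM (at least 159.9-fold lower). Actin, myosin and tropomyosin genes had 26 of 66 higher and 34 lower. Actb, beta-actin, had 13412, 13858 and 12829 CPM in the E0771-BrM libraries and 8048, 7851 and 7412 CPM in those of 482N1 and was higher (0.78 ± 0.07), as were the branching-complex subunit Arpc1b (1.44 ± 0.07) and cofilin, Cfl1 (1.15 ± 0.07), while the membrane linker Ezr (-3.10 ± 0.08) and the monomer-binding Tmsb4x (-2.47 ± 0.08) were lower.

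Growth signalling differed in which receptors and ligands were present. Of 18 receptor tyrosine kinases 6 were higher and 10 lower (median -0.95). Fgfr1 had 42.5, 43.1 and 46.4 CPM in the E0771-BrM libraries and 1.16, 1.2 and 1.27 CPM in those of 482N1 (5.17 ± 0.21) and Egfr was higher (1.56 ± 0.21). Axl had 494, 458 and 431 CPM in the 482N1 libraries and 55.2, 48.4 and 42.8 CPM in those of E0771-BrM (-3.24 ± 0.10), and Ddr1 and Igf1r were lower (-5.54 ± 0.14 and -2.12 ± 0.09). Of 17 growth factors 11 were lower and 5 higher: the EGF-receptor ligands Btc and Hbegf were lower (-5.57 ± 0.16 and -2.42 ± 0.09), and Pdgfa and Gdnf higher (1.78 ± 0.09 and 3.32 ± 0.42). Genes of ERK feedback and the immediate early set had 13 of 41 higher and 26 lower (median -0.53). Etv1, an ETS factor, had 86.8, 94.3 and 87.0 CPM in the E0771-BrM libraries and 2.06, 0.963 and 1.77 CPM in those of 482N1, and Dusp14 was higher too (5.80 ± 0.18 and 2.41 ± 0.21), while Dusp10 and Nr4a1 were lower (-3.26 ± 0.34 and -3.10 ± 0.40).

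Components of the Wnt and TGF-beta pathways were mostly lower in E0771-BrM. Of 39 Wnt genes 26 were lower and 6 higher, with a median of -0.88 that was -0.39 for the 24 with a mean of at least 10 CPM (16 lower, 2 higher) and -0.53 with library B alone. At the receptors Lgr6, which amplifies Wnt signals, had 110.0, 104 and 117 CPM in the 482N1 libraries and 1.14, 0.72 and 1.12 CPM in those of E0771-BrM (-6.78 ± 0.18), and Fzd7 had 3.22, 4.33 and 5.45 CPM in 482N1 and no count in E0771-BrM (at least 35.1-fold lower). Downstream, Ctnnb1, beta-catenin, had 669.8, 621 and 607 CPM in the 482N1 libraries and 205, 189 and 186 CPM in those of E0771-BrM and its DNA-binding partner Tcf7l2 had 160.3, 173 and 178 CPM in the 482N1 libraries and 30.5, 30.7 and 32.7 CPM in those of E0771-BrM; both were chosen after their values were seen (-1.71 ± 0.07 and -2.45 ± 0.09). Tcf7, another partner, and the ligand Wnt10b were higher from low levels (1.42 ± 0.29 and 3.76 ± 0.54). Of 37 TGF-beta and BMP genes 23 were lower and 8 higher (median -0.43). Smad3, a transducer of TGF-beta, had 149, 139.7 and 137 CPM in the 482N1 libraries and 18.7, 20.3 and 18.6 CPM in those of E0771-BrM (-2.89 ± 0.10), and the ligands Bmp4 and Inhba were lower (-3.18 ± 0.15 and -3.29 ± 0.14). Fstl1, a secreted BMP antagonist, and the co-receptor Tgfbr3 were higher (7.32 ± 0.19 and 3.31 ± 0.24). In the Notch and Hedgehog list 9 of 29 were higher and 13 lower; the Notch target Hes1 had 121, 120.1 and 111 CPM in the 482N1 libraries and 0.127, 0 and 0.499 CPM in those of E0771-BrM and Nrarp was lower (-9.05 ± 0.23 and -4.36 ± 0.27), while the Hedgehog co-receptor Cdon was higher (3.71 ± 0.25).

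The YAP-TEAD pathway, which reads cell contact and tension, had 10 of 31 genes higher and 14 lower, close to the background shares. Ccn2, a classical output gene, was lowest in E0771-BrM relative to 482N1 (-8.71 ± 0.19), and Ankrd1, another, had 582, 618 and 509 CPM in the 482N1 libraries and 7.36, 9.6 and 7.23 CPM in those of E0771-BrM (-6.14 ± 0.11). The DNA-binding partner Tead4 was higher (2.50 ± 0.20), and Yap1 itself, chosen after its values were seen, had 48.5, 43.6 and 40.6 CPM in the E0771-BrM libraries and 51.8, 46.5 and 51.7 CPM in those of 482N1 and was not called (-0.18 ± 0.10). The TEAD letters GGAATG, searched as above, occurred for 14 of 26 genes of this list with a promoter (53.8%), against 13.8% of tested genes and 16.6% of all genes. Of these 14 genes 2 were higher, 7 lower and 5 not called. Among the 12 without a match 6 were higher, 4 lower and 2 not called. The promoters of 3 lower genes with the letters, and none of the 2 higher ones, are shown, with capitals marking GGAATG or its reverse complement.
Ccn1: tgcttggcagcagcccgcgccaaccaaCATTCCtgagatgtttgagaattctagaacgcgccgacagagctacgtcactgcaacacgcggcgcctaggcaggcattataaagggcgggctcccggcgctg
Ankrd1: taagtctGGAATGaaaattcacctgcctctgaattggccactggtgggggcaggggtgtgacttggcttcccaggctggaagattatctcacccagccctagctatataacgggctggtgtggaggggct
Amotl2: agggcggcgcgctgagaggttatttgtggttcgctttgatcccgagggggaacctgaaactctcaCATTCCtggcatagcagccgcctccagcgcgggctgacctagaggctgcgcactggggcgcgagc
They lie at chr3:145649986-145650115 and chr19:36119845-36119974 on the minus strand and chr9:102717674-102717803 on the plus strand. Ccn1, a secreted matricellular protein, had 15.1, 14.2 and 14.2 CPM in the 482N1 libraries and 3.93, 2.64 and 3.49 CPM in those of E0771-BrM (-2.11 ± 0.23), and Amotl2, a YAP inhibitor and target, had 30.3, 30.2 and 22.3 CPM in the 482N1 libraries and 4.19, 2.16 and 4.86 CPM in those of E0771-BrM (-2.89 ± 0.20). Both were lower in every E0771-BrM library than in any of 482N1 and were chosen after their values were seen.

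Among transcription factors the nuclear receptors stood out by count. Of 24 measured 19 were lower in E0771-BrM and 1 higher, with a median of -1.50; of the 15 with a mean of at least 10 CPM 11 were lower and none higher (median -0.94). Thra, a thyroid hormone receptor, had 109, 101 and 111 CPM in the 482N1 libraries and 18.8, 18.7 and 14.6 CPM in those of E0771-BrM (-2.62 ± 0.11), and the orphan receptor Nr2f2 was lower as well (-2.41 ± 0.08). Rara and Rarg, receptors for retinoic acid, were lower without overlap (-2.21 ± 0.17 and -1.92 ± 0.11), and Nr3c1, the glucocorticoid receptor, was not called (0.14 ± 0.10); these were chosen after their values were seen. The single higher member, Nr4a3, rested on 42 counts in E0771-BrM and none in 482N1 (at least 13.8-fold).

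KLF, ETS and bHLH factors had 18 of 73 higher and 46 lower (median -0.63), and SOX, forkhead and GATA factors 10 of 34 higher and 19 lower (median -0.74). Ahr, a sensor of aromatic compounds, had 1 count in E0771-BrM and 17.9, 13.8 and 19.6 CPM in 482N1, and Foxo1, a factor held in check by insulin signalling, had 1 count and 59.5, 50.2 and 57.8 CPM. Mxd3 and Tfap2a were higher (3.96 ± 0.29 and 5.40 ± 0.24). Homeobox genes were balanced, with 15 of 37 in each direction, but each line had its own: Hoxa10 and Hoxb3 had no count in 482N1 (at least 75.8-fold and 55.7-fold higher in E0771-BrM), Prrx1, a mesenchymal factor, was higher (4.17 ± 0.14), and Irx3 had no count in E0771-BrM (at least 376-fold lower). Of 294 zinc finger genes 66 were higher, 133 lower and 95 not called, with a median of -0.30. Zfp984 was counted in E0771-BrM only (at least 116-fold higher), as Zfp2 was in 482N1 (at least 49.6-fold lower).

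Imprinted genes, expressed from 1 parental copy, were lower in 8 of 11 cases. Igf2r, a scavenger of IGF2, and Airn, the antisense RNA that overlaps Igf2r, were lower (-2.36 ± 0.14 and -2.96 ± 0.27); whether counting used strand is not given, so reads of the pair cannot be told apart. The list of cancer-testis and germline genes, filled by symbol, had 9 of 15 higher and 5 lower. Membership by symbol does not show that a gene is restricted to the germline. Besides the Xlr3 genes of E0771-BrM the extremes of this list were genes of 482N1 with a MAGE-family symbol. Mageh1 had 20.1, 14.7 and 15.2 CPM there and no count in E0771-BrM (at least 134-fold lower), and Maged2 had 69.6, 63.8 and 68.1 CPM in the 482N1 libraries and 1.27, 0.72 and 1.5 CPM in those of E0771-BrM.

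Lists of membrane transport and excitability differed in direction. Ion channels and pumps had 24 of 78 higher and 40 lower: the potassium channel subunit Kcnab2 had 73.6, 72.7 and 76.3 CPM in the E0771-BrM libraries and 0.129, 0.12 and 0.127 CPM in those of 482N1, and the water channel Aqp1 was lower (-5.17 ± 0.28). SNARE, Rab and exocytosis genes had 30 of 98 higher and 46 lower, with Stxbp5 higher and Stxbp2, both binders of syntaxins, lower (3.23 ± 0.14 and -5.37 ± 0.17). G protein-coupled receptors and their regulators had 29 of 68 higher and 28 lower. F2r, the thrombin receptor, had 515, 462 and 429.7 CPM in the 482N1 libraries and 15.7, 11.3 and 14.7 CPM in those of E0771-BrM (-5.08 ± 0.11), and Gprc5b had no count in E0771-BrM (at least 221-fold lower). Axon guidance genes were mostly lower, with 9 of 33 higher and 21 lower (median -1.17), and 17 of the lower ones reached 2-fold. Against this trend Nrp2, a co-receptor of semaphorins, was higher, at 209, 174 and 183 CPM in the E0771-BrM libraries and 11.4, 12.8 and 12.5 CPM in those of 482N1 (3.94 ± 0.10). Vacuolar proton pump genes leaned to the higher side, with 9 of 17 higher and 4 lower, and glucose, lactate and nucleoside transporters 6 of 15 higher and 8 lower.

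The lists not yet described differed in direction. Mitochondrial ribosomal proteins were more often higher than the background share, with 40 of 77 higher and 19 lower, and Mrpl42 and Mrpl24 lay at the ends (1.67 ± 0.09 and -2.22 ± 0.10). Autophagy had 11 of 33 higher and 14 lower: the protease Atg4c was higher (2.44 ± 0.29) and the cargo receptor Nbr1 lower (-2.70 ± 0.12). Proteoglycan genes had 12 of 25 higher and 11 lower, among them the sulphotransferase Chst11 on the higher side (6.07 ± 0.31) and, on the lower, the syndecan Sdc4 (-3.13 ± 0.10). In the complement and coagulation list 6 of 14 were higher and 7 lower. Plau, urokinase, had 26.3, 25.7 and 24.7 CPM in the E0771-BrM libraries and 1.16, 2.29 and 1.14 CPM in those of 482N1, while its receptor Plaur was lower (-2.37 ± 0.14), and F3, the tissue factor that starts clotting, was lower too (-2.46 ± 0.34). Aldehyde and ketone reductases had 6 of 20 higher and 10 lower; Aldh1l2, a mitochondrial folate enzyme, had 36.5, 33.7 and 33.9 CPM in the E0771-BrM libraries and 5.42, 3.85 and 4.82 CPM in those of 482N1, and Aldh1a3, which makes retinoic acid, had 44.5, 55.2 and 48.8 CPM in the 482N1 libraries and 5.84, 3.96 and 4.61 CPM in those of E0771-BrM (2.89 ± 0.16 and -3.37 ± 0.16). Genes of mesenchymal identity were split, with 10 of 23 in each direction, and Twist2, a mesenchymal factor, was on the higher side (4.56 ± 0.27). Growth cone genes were above the background on the higher side, with 12 of 20 higher and 7 lower, and they held Tubb3, the neuronal tubulin, at 3.77 ± 0.36 and Dpysl3, a collapsin response protein, at -5.22 ± 0.29.

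The labelled tissues were checked against their markers. Among lung epithelial genes 7 were measured, of which 482N1 was higher for 5 and E0771-BrM for 1; Sox9, a progenitor factor, had 666, 603 and 666 CPM in the 482N1 libraries and 53.6, 45.6 and 60.1 CPM in those of E0771-BrM, and Etv5 was lower (-0.62 ± 0.12). Among mammary epithelial genes 11 were measured, and E0771-BrM was below 482N1 for 9 of them and above it for 2. Erbb2 and Areg were among the lower ones (-2.04 ± 0.19 and -0.64 ± 0.11), and Procr, a marker of mammary progenitors, had 109, 111 and 99.5 CPM in the E0771-BrM libraries and 27.3, 29.1 and 26.6 CPM in those of 482N1 and was higher (1.94 ± 0.10). Most measured mammary markers were thus lower in the line labelled as breast cancer. Whether these genes can tell the tissues of the lines apart was not tested. Other defining markers, among them Nkx2-1, Sftpc, Krt5, Krt14 and Esr1, are not analysed here. Of the other cell types, fibroblast genes were Pdgfrb, with 2.54, 2.52 and 1.37 CPM in E0771-BrM and none in 482N1, and Col1a2, with 3 and 1 counts. Of 3 leukocyte genes Lcp1, an actin bundler of blood cells, and Cd68 were higher and Cd14 was lower (7.98 ± 0.15, 2.65 ± 0.24 and -1.60 ± 0.17). Lcp1 was the largest difference of that list. Of 3 endothelial genes Eng and Egfl7 were higher and Flt1 lower (3.61 ± 0.21, 3.38 ± 0.19 and -3.92 ± 0.14). The leukocyte and endothelial surface markers Ptprc and Pecam1 are not analysed here. Of 5 melanocyte genes Mitf and Gpnmb were higher (4.23 ± 0.17 and 5.36 ± 0.21), and Dct, Pmel and Tyrp1 were not called. In library B, with the fewest Dct counts, Mitf still had 35 CPM in E0771-BrM and 0.722 CPM in 482N1. With library B alone Dct and Pmel were also called higher by the edgeR test, on 29 against 14 counts of Dct and 4 against 0 counts of Pmel.

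Genes were also grouped by the stem of their symbol, without any list. Of 70 stems with at least 15 genes, that of the kinesins (Kif) had 18 of 26 higher and 6 lower, with a median of 0.78, and that of the nuclear receptors (Nr) 2 of 16 higher and 11 lower, with a median of -1.31. The large-subunit ribosomal stem (Rpl) had 8 of 87 higher and 50 lower (median -0.38), and the small-subunit stem (Rps) had a median of -0.33. Nucleoporins (Nup), initiation factors (Eif) and integrator subunits (Ints) had medians of 0.45, 0.46 and 0.48.

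By chromosome, with genes placed through a RefSeq list of an earlier build for order only, medians ranged from -0.58 on chromosome 7 to 0.40 on chromosome 4. On chromosome 7, E0771-BrM was lower for 57.4% and higher for 20.3% of 777 genes, and on chromosome 4 it was lower for 26.8% and higher for 52.6% of 660 genes. Chromosome 5 came next at 0.37, and chromosome 8 at -0.32. Limited to genes with a mean of at least 10 CPM, the medians were -0.58 for chromosome 7, 0.44 for chromosomes 4 and 5 and -0.35 for chromosome 8. The chromosome medians were small in size, and no run of 5 or more neighbours differed by at least 8-fold in the same direction. Some windows of neighbouring genes on these chromosomes had larger medians, which are given further below. DNA copy number was not measured, and its part in these medians was not tested.

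**Figure D5:**
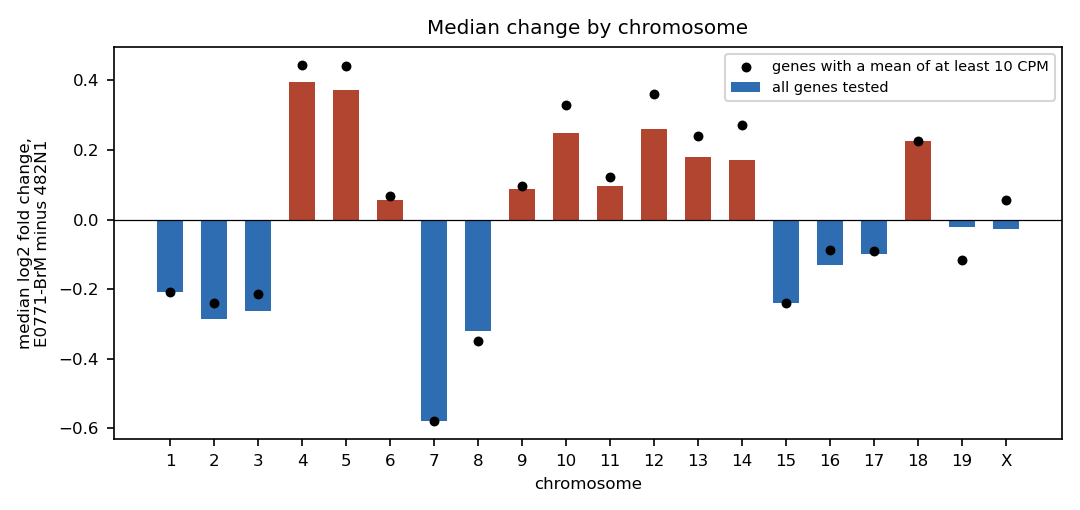
Median log2 difference (E0771-BrM minus 482N1) of the genes tested on each chromosome (bars) and of those with a mean of at least 10 CPM (black points). Chromosome 7 is lowest at -0.58 and chromosome 4 highest at 0.40, and the points lie on the same side of 0 as the bars on every chromosome but X.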

How the data were processed

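Poly(A)-selected, stranded RNA libraries had been sequenced from 3 lines with 3 libraries each, per the labels' protocols. The authors' deposited table holds read counts per gene, with no normalisation. The submitters' processing notes name FastQC, TopHat2 2.0.10, Bowtie 1.0.0, SAMtools 0.1.19, Cufflinks 2.2.1 and build GRCm39; the counting tool, its strand setting, the annotation and how genes were chosen are not given in the sources used here. Reads of near-identical copies may therefore be split in unknown ways.

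Genes were filtered with filterByExpr, which removed 9, scaled with TMM factors and tested with edgeR 4.0.16 (R 4.3.3), using the robust quasi-likelihood fit over all 9 libraries and Benjamini-Hochberg adjustment at 0.05. The SE is the log2 difference divided by the square root of its F statistic. A gene without counts in a line was given a bound from 3 counts over that line's libraries, and a ratio with 1 to 3 counts a 95% exact interval, both covering counting error only. The fit was tested on simulated counts with known changes, where it recovered 98.5% of 2-fold changes and called 0.0925% of unchanged genes. Those counts had the same spread for all genes and few changed genes. They therefore do not test the scaling of lines that differ in most genes. Alternatives were other scalings and filters, DESeq2 1.42.0, limma-voom (limma 3.58.1), a replicate block, left-out libraries and a test against a 2-fold change.

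Of 81 gene lists, 80 had a measured member. Named genes were, each way, the 15 called genes with the largest ratio of CPM plus 1 (without predicted genes) and the 12 with the largest difference in CPM, both without overlap between the lines, up to 4 called members per list with the largest log2 difference, the tissue marker lists, and the 3 most abundant genes of each line. The text gives a selection of these, and other genes are said to be chosen after their values were seen. A few genes and 1 list are not reported here. Medians under 0.25 in size are not given for lists. Members, lists and rules were chosen with earlier results of these data known. Promoters are RefSeq's of build GRCm38.p6, matched by symbol for 8578 genes and their coordinates are of that build. Besides the ISRE, CARE and TEAD letters, those of a sterol element, the MYC E-box, CRE, AP-1, NF-kappaB and ARE were searched. Their shares are not described.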

Additional observations from a re-analysis of the deposited data

How the results depend on the processing

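No gene called here was called in the opposite direction in any alternative. The count of 8622 called genes stayed between 8348 and 8631 with RLE or upper-quartile factors, DESeq2, limma-voom, no filter, a filter of at least 1 CPM, the ribosomal RNA genes removed or the 6 libraries of both lines alone, and it was 6431 among the 7839 genes with a mean of at least 10 CPM, 1314 of them at least 2-fold higher and 1509 at least 2-fold lower. Testing against a 2-fold change left 3342 genes, 1516 higher and 1826 lower. Leaving out a library gave 8282 to 8615 called genes, with 3980 to 4175 higher, 4268 to 4444 lower, 2010.0 to 2076 at least 2-fold higher and 2328 to 2387 at least 2-fold lower. Library B of each line alone gave 7175 calls, of which 7029 were also called with all libraries. Of the 581 genes the naming rule gave, none that had been called changed direction. Against the 2-fold null 91 lost their call, and at most 8 did so without any single library. The main fit did not pair libraries by letter. Deviations of same-letter libraries of E0771-BrM and 482N1 correlated at 0.04, 0.03 and 0.04, and those of different letters at -0.07 to 0.04. Such small values do not settle whether the letters share a step, and melanocyte gene counts were lowest in library B of both lines. A fit with the letter as a replicate block called 8623 genes, 4165 higher and 4458 lower. Among genes with a mean of at least 10 CPM the median turned to -0.0536 for the cytokine and chemokine list and to 0.0565 for chromosome X, as fewer genes were tested. The medians of 12 lists changed sign in some alternative, 6 under this filter and 7 with library B alone; apart from the cytokine list these were under 0.25 in size. With motifs searched only in the 200 bases before the start, ISRE letters stood in 45.5% of interferon-stimulated, 18.8% of class I and 6.67% of sensor genes (2.26% of tested genes), CARE letters in 31.8% of amino acid stress and 21.4% of synthetase genes (1.81%) and TEAD letters in 42.3% of YAP-TEAD genes (9.68%). Genes under 3 CPM rest on few reads, and bounds there are set by depth.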

Other observations

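Neighbouring genes were also read along each chromosome in windows of 25 tested genes, a scan chosen after the data had been seen. The window with the largest median lay on chromosome 9 between Vps26b and Fez1, where 23 of 25 genes were higher in E0771-BrM and 1 was lower, 19 of them at least 2-fold higher, with a median log2 difference of 2.16. It holds Ets1, an ETS transcription factor, Aplp2, a relative of the amyloid precursor protein, Srpr, a part of the signal recognition receptor, and the checkpoint kinase Chek1. Ets1 had 132, 149.9 and 159 CPM in the E0771-BrM libraries and 24.4, 22.5 and 23.8 CPM in those of 482N1. Aplp2 had 1251, 1371 and 1251 CPM in the E0771-BrM libraries and 232, 239 and 225 CPM in those of 482N1, and Srpr had 413, 382 and 443 CPM in the E0771-BrM libraries and 47.9, 59.3 and 51.5 CPM in those of 482N1. These 3 neighbours were higher without overlap between the lines (2.64 ± 0.09, 2.48 ± 0.07 and 2.96 ± 0.09).

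The window with the lowest median lay on chromosome X between Prickle3 and Mid1ip1, with 22 of 25 genes lower in E0771-BrM, 1 higher and a median of -1.63. Among the lower genes the deacetylase Hdac6 had 43.7, 55.2 and 44.1 CPM in the 482N1 libraries and 7.99, 10.2 and 10.7 CPM in those of E0771-BrM, and Ebp of sterol synthesis lies in the same window. The 1 higher gene was Rbm3, a cold-induced RNA-binding protein, with 218, 222 and 234 CPM in the E0771-BrM libraries and 169, 153 and 179 CPM in those of 482N1. On chromosome 7, whose genes as a whole were lower, the window from Dctpp1 to Prss36 had 20 of 25 lower, 1 higher and a median of -1.47. A window on chromosome 3 with the S100 calcium-binding genes had 20 of 25 lower and 4 higher, with a median of -1.36. On the higher side, the window on chromosome 12 from Ttc32 to Adam17 (17 higher, 5 lower) had a median of 1.35. Windows on chromosome 4 from Ptbp3 to Tle1 (18 higher, none lower) and chromosome 14 from Zmym2 to Spryd7 (22 higher, 3 lower) had medians of 1.32 and 1.31. DNA copy number was not measured, and its part in these windows was not tested.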
